A study of Mus musculus with 4 samples.

Results

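The 10 genes described here handle lipid in macrophages: the receptor gene Trem2, the apolipoprotein gene Apoe, the lipase genes Lpl and Lipa, the fatty acid binding protein genes Fabp4 and Fabp5, the sterol transporter genes Abca1 and Abcg1, and the phagocyte genes Lgals3 and Gpnmb. They were chosen by name, and all 10 had unique molecular identifiers (UMIs, the tags that count captured RNA molecules) in every library, among 12996 genes in the monocyte and macrophage table and 13071 in the joint table of LLC and B16. RNA of single cells from subcutaneous mouse tumours was counted in droplets, in 3 libraries, each a pool of 3 mice, from a study of how dendritic cell subsets and suppressive macrophages bear on CD40 agonists. B16 is a mouse melanoma line and LLC (Lewis lung carcinoma) a mouse lung cancer line. The B16 library came from C57BL/6J mice, and so did the CITE-seq LLC library, in which the same cells also carried antibody tags. The LLC library came from F11r fl/fl LysM-Cre- mice, which carry a floxed F11r and no Cre. The labels name no treatment, age or sex. Since each group is 1 library, a difference between libraries has no replicate check, and tumour, library and, against LLC, mouse strain cannot be told apart.

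TREM2 is a surface receptor of macrophages and microglia that binds lipids and lipoproteins, signals through the adaptor TYROBP (DAP12) and is known as a marker of lipid-associated and tumour-associated macrophages. Lipid enters a macrophage as lipoprotein or dying cells, is freed by lipases, is bound in the cytosol by fatty acid binding proteins, and leaves as cholesterol through ABCA1 and ABCG1 to acceptors such as APOE. LXR and PPAR nuclear receptors switch on many of these genes when sterols or fatty acids build up.

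The monocyte and macrophage table held 2297 B16, 10131 CITE-seq LLC and 8155 LLC cells, with medians of 9250 UMIs per cell in B16, 4546 in CITE-seq LLC and 6530 in LLC. It did not hold every macrophage. The monocyte and macrophage clusters of the joint table, the joint class below, held 2742 B16 and 9194 LLC cells. That class leaves out the cluster named Neutrophil-like monocytes, with 31 B16 and 890 LLC cells. The B16 library's own annotation named 322 cells Mac-Prolif and 53 Mac-Lyve1. Of these, the monocyte and macrophage table held no Mac-Prolif and 4 Mac-Lyve1 cells. Levels are not compared between genes here. They are given in CPM, the UMIs of a gene summed over a class of cells per 1000000 UMIs of that class, and a ratio is given with an exact 95% interval that covers counting error only. A gene is called higher or lower where the ratio passed 1.5-fold. The subset names are the authors' own, TAM standing for tumour-associated macrophage. A summed list of 10 monocyte and macrophage markers ran between 3257 and 17631 CPM in B16 subsets, between 3931 and 15818 CPM in CITE-seq LLC subsets and between 3728 and 17042 CPM in LLC subsets, against 1504 CPM in B16 naive T cells and 1258 CPM in LLC naive T cells of the joint table. TAM-1 was nearly a subset of B16, with 941 cells there against 4 CITE-seq LLC and 2 LLC cells, and TAM-4 was its reverse, with 2 B16, 2606 CITE-seq LLC and 1585 LLC cells. Shared cell barcodes were few, 6 between B16 and CITE-seq LLC, 5 between B16 and LLC, and 18 between CITE-seq LLC and LLC.

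Over the cells of the monocyte and macrophage table, B16 carried more RNA than LLC for fatty acid release and binding (Lpl, Fabp4, Fabp5). It also carried more for the lysosomal lipase (Lipa), the transporter Abcg1 and Gpnmb, and less of the transporter Abca1. Trem2, Apoe and Lgals3 stayed within 1.5-fold. Levels and ratios of all 10 follow by role. Of the 10 genes, 6 in the monocyte and macrophage table were higher in B16 than in LLC, where 11.9% of the 11196 genes measured were higher. Only Abca1 was lower, where 11.8% of all genes were lower. The median log2 ratio of the 10 was 1.39, beside -0.03 over all genes. The joint table, with its own clustering of B16 and LLC cells, gave the same counts, 6 higher and 1 lower, against 11.9% of genes higher and 11.9% lower. There the call of Lipa ended with equal weight to each shared subset, at 1.49 in place of 2.71. Against CITE-seq LLC, from mice of the same strain as B16, the same 6 genes were higher (11.0% of all genes) and Abca1 and Trem2 were lower (9.93% of all genes). Between the LLC libraries, 9 of the 10 stayed within 1.5-fold, and Lpl was higher in CITE-seq LLC, where 3.03% of genes were higher and 2.81% lower than in LLC. The contrasts share libraries, so they are not independent of each other.

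**Figure D1:**
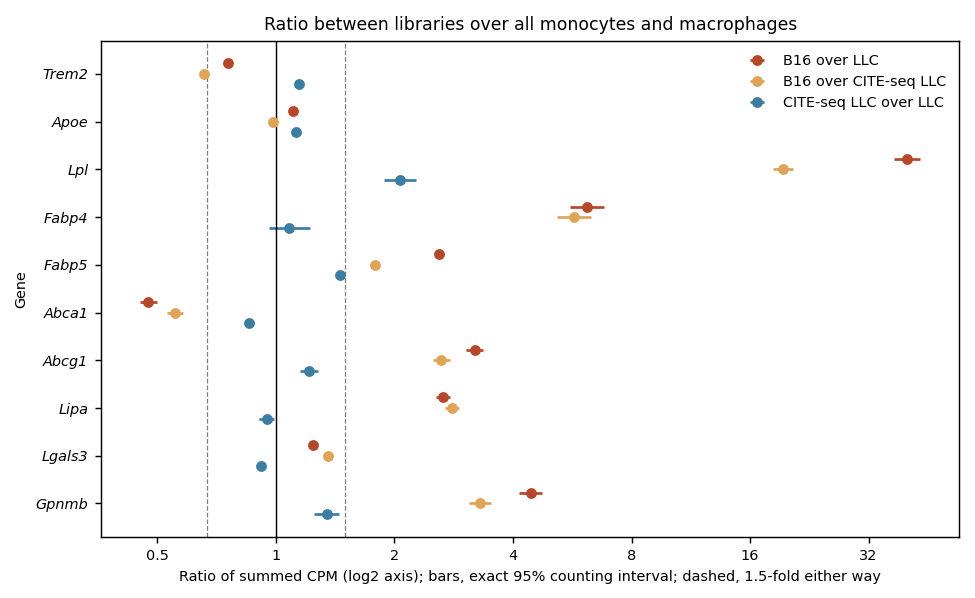
Ratio of summed CPM over all cells of the monocyte and macrophage table for the 10 genes (log2 axis), B16 over LLC, B16 over CITE-seq LLC and CITE-seq LLC over LLC, with exact 95% counting intervals and dashed lines at 1.5-fold either way. Lpl lies farthest to the right, at 40.1 for B16 over LLC, and Abca1 is left of the lower dashed line in both B16 contrasts.

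Those pooled ratios mix the level inside a subset with the share of cells in each subset. TAM-1 made up 41.0% of B16 cells but gave 82.6% of the library's Lpl UMIs, 76.0% of its Lipa UMIs, 75.2% of its Trem2 UMIs and 74.0% of its Apoe UMIs. Of Gpnmb, by contrast, TAM-1 gave 45.6%, and Mono/TAM Hypoxic, with 9.27% of cells, gave 29.5%. With equal weight to each subset that held at least 50 cells in both libraries, the B16 over LLC ratio of Lpl was 11.9 in place of 40.1, and that of Abcg1 was 2.06 in place of 3.20. Those subsets were Monocytes, Mono/TAM IFN and Mono/TAM Hypoxic. TAM-1, TAM-2, TAM-3, TAM-4 and LLC TAM Hypoxic were left out, so these values do not cover them. The same weighting left Abca1 at 0.66 and put Lgals3 at 1.53, past 1.5-fold. Against CITE-seq LLC, where Immature TAM-1 was shared too, the weighting ended the calls of Abca1, at 0.92 in place of 0.55, and of Trem2, at 0.71 in place of 0.66. It put Lpl at 4.95 in place of 19.4.

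**Figure D2:**
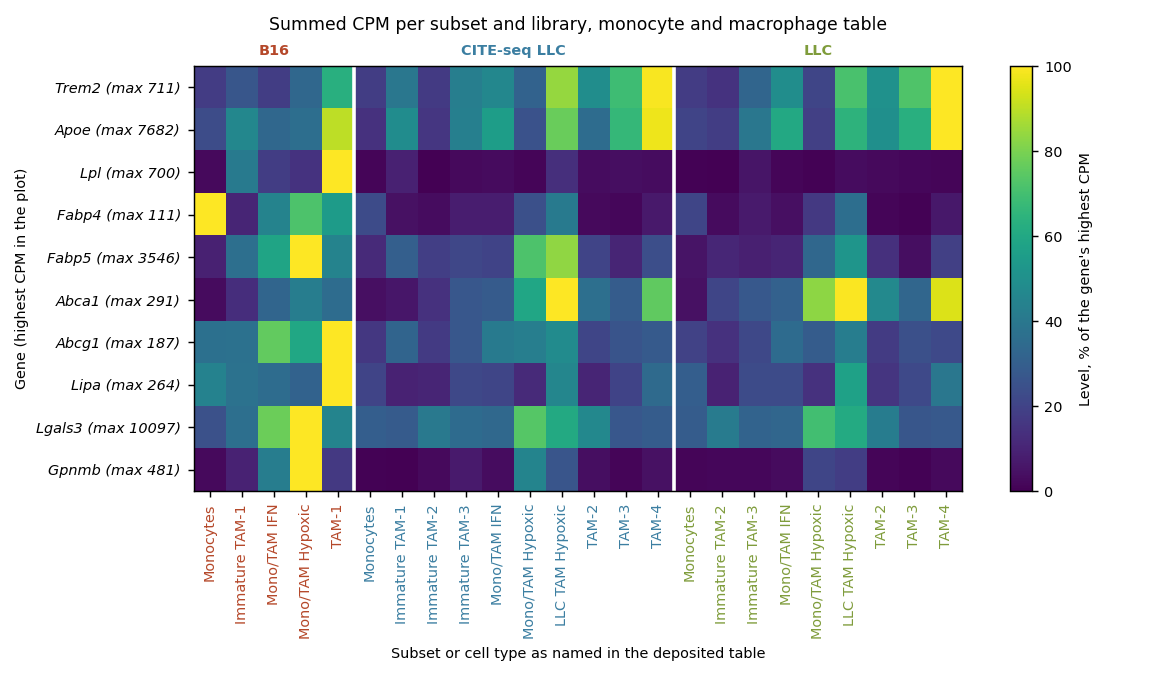
Level of each of the 10 genes in every subset held by at least 50 cells, grouped by library, as a percentage of that gene's highest CPM (written beside its name). Trem2 and Apoe peak in TAM-4 of the LLC libraries, Lpl, Abcg1 and Lipa in TAM-1 of B16, and Lgals3 and Gpnmb in Mono/TAM Hypoxic of B16.

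Trem2 encodes the receptor (GRCm38, chr17:48346401-48354147, plus strand). Its level was lowest in monocytes and in Immature TAM-2 and highest in TAM-1 of B16 and TAM-4 of both LLC libraries. In B16 it was 448 CPM in TAM-1, 238 in Mono/TAM Hypoxic, 191 in Immature TAM-1, 129 in Mono/TAM IFN and 127 in Monocytes, the last pair not differing beyond counting error. The order in CITE-seq LLC was led by TAM-4 at 705 CPM, LLC TAM Hypoxic at 598 and TAM-3 at 490, and closed by Monocytes at 130 and Immature TAM-2 at 121. LLC followed with 711 CPM in TAM-4, 515 in TAM-3 and 506 in LLC TAM Hypoxic, the last pair alike within counting error, and with 125 in Monocytes and 105 in Immature TAM-2. The monocyte level was thus alike within counting error in all 3 libraries. The top subset stood 3.54-fold over Monocytes in B16, 5.43-fold in CITE-seq LLC and 5.69-fold in LLC.

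The share of cells with a Trem2 UMI was 88.6% in B16 TAM-1 cells, with an exact binomial interval of 86.4% to 90.6%, against 97.7% in CITE-seq LLC TAM-4 and 98.3% in LLC TAM-4. After every cell was thinned to 2000 UMIs, leaving out shallower cells, the shares were 52.6% in B16 TAM-1 (931 cells kept), 74.9% in CITE-seq LLC TAM-4 (2598) and 72.7% in LLC TAM-4 (1583). Thinned monocytes gave 19.9% in B16, 23.3% in CITE-seq LLC and 20% in LLC. Naive T cells, which should lack the gene, gave 2.02% in B16 (0.587% thinned, median 3736 UMIs per cell) and 2.70% in LLC (2.21% thinned, median 2455).

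Pooled Trem2 was 327 CPM in B16, 496 in CITE-seq LLC and 433 in LLC, a B16 over LLC ratio of 0.75 (0.74 to 0.77) and a B16 over CITE-seq LLC ratio of 0.66 (0.64 to 0.67). Inside subsets the direction depended on the subset. In Mono/TAM IFN cells Trem2 was 129 CPM in B16, against 330 in CITE-seq LLC and 349 in LLC, a B16 over LLC ratio of 0.37 (0.31 to 0.44). In Mono/TAM Hypoxic cells it was 238 CPM in B16, 223 in CITE-seq LLC and 148 in LLC, so that LLC alone was low, and in Monocytes B16 over LLC was 1.01 (0.88 to 1.17). B16 Mono/TAM IFN cells thus sat at the Trem2 level of monocytes, and those of the LLC libraries well above it.

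The promoter window of Trem2 is shown because the gene stands at the head of this pathway and its subset order was shared by Apoe. It covers chr17:48346151-48346450 on the plus strand (RefSeq, GRCm38.p6), 250 bases before to 50 after the annotated start. Capitals mark a nuclear receptor half-site, AGGTCA or its reverse complement, from position -68 to -63 from the start, and an AP-1 type site, TGANTCA, from -9 to -3. On either strand the half-site occurs in 16.3% of the 32851 mouse promoter windows of this length and TGANTCA in 7.81%, so a match describes the letters and not a binding site.
Trem2: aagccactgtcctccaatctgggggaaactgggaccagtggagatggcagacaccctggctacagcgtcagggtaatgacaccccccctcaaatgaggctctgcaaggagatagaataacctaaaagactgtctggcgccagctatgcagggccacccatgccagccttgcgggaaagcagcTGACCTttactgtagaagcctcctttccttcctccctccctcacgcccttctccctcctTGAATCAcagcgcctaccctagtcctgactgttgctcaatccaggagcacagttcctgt

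Apoe (chr7:19696109-19699188, minus strand) encodes the apolipoprotein that carries cholesterol out of macrophages and is itself a TREM2 ligand. Its order over subsets was close to that of Trem2. B16 TAM-1 held 6907 CPM, against 7475 in CITE-seq LLC TAM-4 and 7682 in LLC TAM-4, while Monocytes held 1797 in B16, 1106 in CITE-seq LLC and 1584 in LLC. Pooled levels of 5115 CPM in B16, 5210 in CITE-seq LLC and 4623 in LLC gave a B16 over LLC ratio of 1.11 and a B16 over CITE-seq LLC ratio of 0.98. As with Trem2, Mono/TAM IFN cells had less Apoe in B16, at 2568 CPM, against 4290 in CITE-seq LLC and 4630 in LLC. Mono/TAM Hypoxic cells were at 2784 CPM in B16, against 1936 in CITE-seq LLC and 1466 in LLC, ratios of 1.44 over CITE-seq LLC and 1.90 over LLC. Across the 24 combinations of subset and library with at least 50 cells, Pearson's r between log2 levels of Trem2 and Apoe was 0.92, and Spearman's rho within a library was 0.90 in B16 (5 subsets), 0.90 in CITE-seq LLC (10) and 0.95 in LLC (9). These points share libraries and cells of neighbouring clusters, so the values are descriptions.

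**Figure D3:**
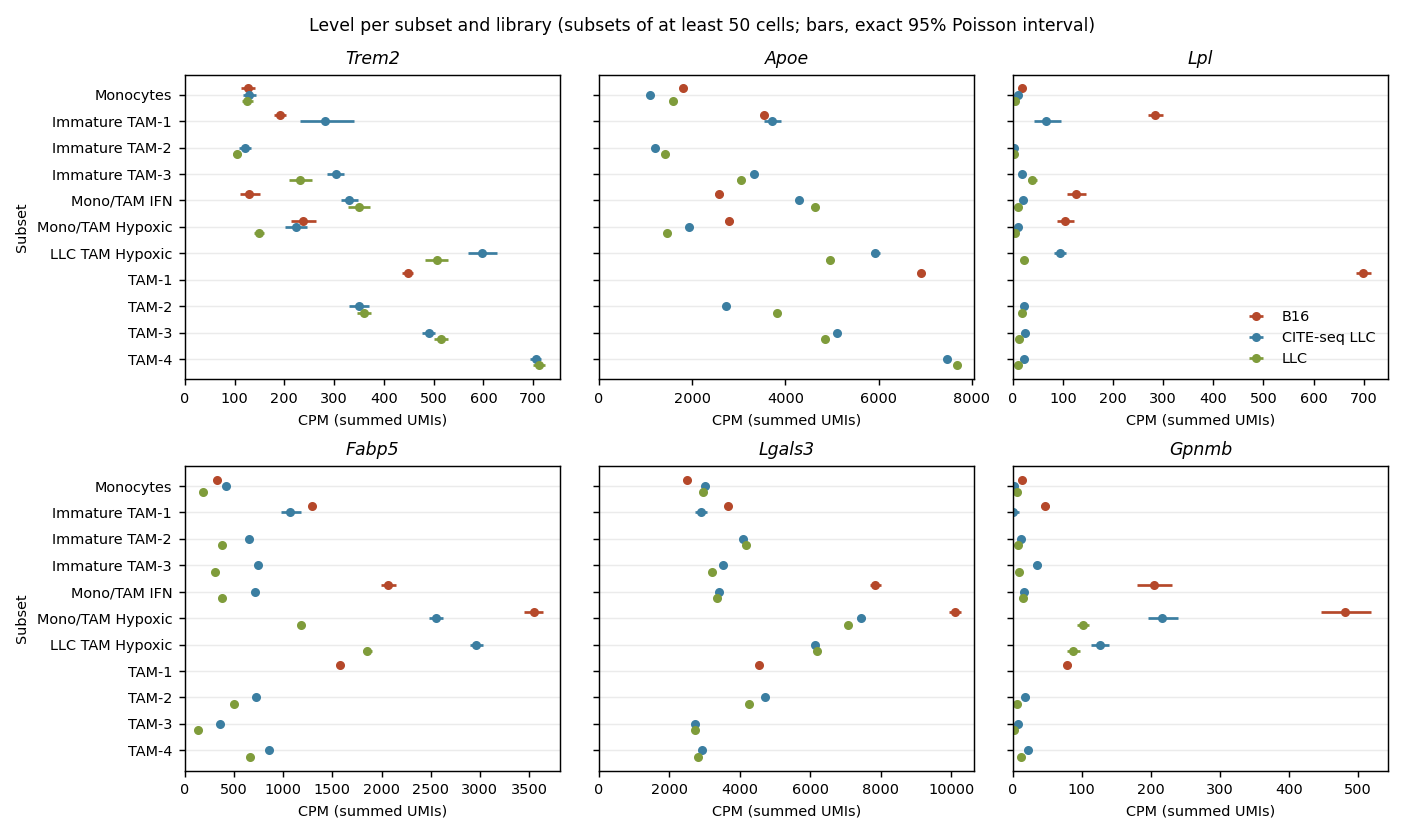
CPM of Trem2, Apoe, Lpl, Fabp5, Lgals3 and Gpnmb in each subset held by at least 50 cells (rows) in B16, CITE-seq LLC and LLC (colours), with exact 95% Poisson intervals. In Mono/TAM IFN the B16 point is left of both LLC libraries for Trem2 and Apoe and right of both for Fabp5, Lgals3 and Gpnmb.

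The 5 other genes whose levels ran most like Trem2 over those 24 combinations, among 4107 ranked, were Ifi27 (r = 0.97), Tspan4 (0.93), Timp2 (0.93), Nenf (0.91) and Tpp1 (0.91). All 5 had their highest level in TAM-1 of B16 and in TAM-4 of CITE-seq LLC and LLC, as Trem2 had. Tspan4, a tetraspanin gene, was at 81.6 CPM in B16 TAM-1 and 2.74 in B16 Monocytes, and at 70.4 in LLC TAM-4 and 3.19 in LLC Monocytes. Tpp1, a lysosomal peptidase gene, was at 126 CPM in B16 TAM-1 and at 260 in LLC TAM-4.

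Of 10 genes listed for TREM2 signalling and family, 1 was higher (11.9% of all genes) and 2 were lower (11.8% of all genes) in B16 than in LLC, shares close to those of all genes, with a median log2 ratio of -0.11 beside -0.03 over all genes. Tyrobp, the signalling adaptor, was at 2820 CPM in B16 and 3030 in LLC (ratio 0.93), and is given for its role, after its values were seen. The genes that passed 1.5-fold were other members of the receptor family and Ms4a4a. Trem1, an activating receptor of neutrophils and monocytes, was at 9.93 CPM in B16 and 60.8 in LLC (ratio 0.16, 0.14 to 0.19). Ms4a4a, of the MS4A family linked to human soluble TREM2, was at 7.42 CPM in B16 and 13.9 in LLC (0.54), and Treml4 was at 33.1 CPM in B16 and 12.7 in LLC (2.60, 2.36 to 2.87).

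Lpl (chr8:68880491-68907448, plus strand) encodes lipoprotein lipase, which frees fatty acids from triglyceride-rich lipoproteins. It showed the largest ratio of the 10 genes in all 3 contrasts of this table, with 464 CPM in B16, 23.9 in CITE-seq LLC and 11.6 in LLC. B16 TAM-1 held 700 CPM, Immature TAM-1 284, Mono/TAM IFN 126, Mono/TAM Hypoxic 104 and Monocytes 18.0. No subset of CITE-seq LLC passed 94.1 CPM (LLC TAM Hypoxic), and none of LLC passed 38.7 (Immature TAM-3). Every B16 subset but Monocytes was above every subset of both LLC libraries, though Mono/TAM Hypoxic of B16 and LLC TAM Hypoxic of CITE-seq LLC had overlapping counting intervals. The share of cells with an Lpl UMI was 78.3% in B16 TAM-1 (75.6% to 80.9%), and 50.4% after thinning, against 9.02% in CITE-seq LLC TAM-4 (2.85% thinned) and 5.05% in LLC TAM-4 (1.26% thinned). Naive T cells gave 2.56% in B16 (1.17% thinned) and 0.541% in LLC, so the B16 TAM-1 share was far above that background.

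Within shared subsets the B16 over LLC ratio of Lpl was 20.5 in Mono/TAM Hypoxic (13.6 to 31.8), 12.1 in Mono/TAM IFN (8.24 to 18.4) and 3.33 in Monocytes (1.96 to 5.81). In the joint table LLC cells did hold a population with more Lpl, the TAM-2 cluster of that table at 119 CPM, where 33.9% of 445 cells had a UMI. The other joint LLC clusters of monocytes and macrophages with at least 50 cells were at 41.7 CPM or less. B16 over LLC over the joint class was 18.7 (17.8 to 19.6), against 40.1 in the monocyte and macrophage table, with 468 CPM in B16 and 25.1 in LLC.

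Of 12 listed receptors for taking up lipoproteins and dying cells, 10 had enough counts, and 2 were higher (11.9% of all genes) and 5 lower (11.8% of all genes) in B16 than in LLC, with a median log2 ratio of -0.33 beside -0.03 over all genes. The scavenger receptor gene Msr1 was at 284 CPM in B16 and 583 in LLC (ratio 0.49). Stab1, another scavenger receptor gene, was at 94.6 CPM in B16 and 201 in LLC (0.47), and the oxidised LDL receptor gene Olr1 at 1.78 in B16 and 4.87 in LLC (0.36). Axl, a receptor for phosphatidylserine-bearing dying cells, went the other way, at 134 CPM in B16 and 37.3 in LLC (3.58, 3.40 to 3.78). Vldlr and Marco had too few counts.

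Fabp5 (chr3:10012548-10016607, plus strand) and Fabp4 (chr3:10204088-10208576, minus strand) encode cytosolic fatty acid carriers and lie 187480 bases apart. Fabp5 followed the subsets named for hypoxia. It was at 3546 CPM in B16 Mono/TAM Hypoxic, against 2555 in CITE-seq LLC and 1186 in LLC, and at 2963 in CITE-seq LLC and 1856 in LLC cells of LLC TAM Hypoxic. Outside those subsets the highest B16 level was 2067 CPM in Mono/TAM IFN, where CITE-seq LLC had 710 and LLC 373. Its low points were Monocytes in B16 (329 CPM) and TAM-3 in CITE-seq LLC (363) and LLC (136). Pooled, Fabp5 was at 1530 CPM in B16, 855 in CITE-seq LLC and 588 in LLC, and B16 over LLC was 1.82 to 5.54 in the 3 shared subsets. Against CITE-seq LLC it was above 1.5-fold in Mono/TAM IFN alone of 4 shared subsets, and 0.79 in Monocytes.

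Fabp4, known from adipocytes, endothelium and macrophages, had a different map. In B16 it was at 111 CPM in Monocytes, 80.1 in Mono/TAM Hypoxic, 61.2 in TAM-1, 49.6 in Mono/TAM IFN and 11.4 in Immature TAM-1. In the LLC libraries it was highest in LLC TAM Hypoxic, at 45.8 CPM in CITE-seq LLC and 40.0 in LLC, and in their Monocytes at 25.4 CPM in CITE-seq LLC and 23.3 in LLC. It was carried by a minority of cells: 28.0% of B16 Monocytes had a UMI (23.7% to 32.7%; 18.6% thinned), and 14.9% of B16 TAM-1 cells (6.12% thinned). Monocytes of CITE-seq LLC gave 5.51% and of LLC 6.10%, and naive T cells gave 0.404% in B16 and 0.541% in LLC. B16 over LLC was 4.76 in Monocytes (3.76 to 6.07), 4.34 in Mono/TAM Hypoxic and 11.4 in Mono/TAM IFN, the last on 13 UMIs in LLC. In the B16 library's own annotation, 277 of the 396 B16 Monocytes were named Mono-NC and 114 Mono, and Fabp4 was at 145 CPM in Mono-NC and 8.29 in Mono. Apoe was at 2076 CPM in Mono-NC and 1518 in Mono, and Fabp5 at 386 in Mono-NC and 595 in Mono. The part of this mix of cells in the monocyte ratios of Fabp4 and the other genes was not tested. The 4 endothelial markers summed to 26.6 CPM in B16 Monocytes, 28.1 in CITE-seq LLC Monocytes and 19.2 in LLC Monocytes. Over all cells of the monocyte and macrophage table they summed to 44.95 CPM in B16, 22.4 in CITE-seq LLC and 18.1 in LLC. Their highest sum in B16 was 109.7 CPM, in Mono/TAM IFN. Of the 4, Pecam1, Kdr and Flt1 were higher in B16 than in both LLC libraries. Cdh5 was lower, at 0.323 CPM in B16, 1.05 in CITE-seq LLC and 0.954 in LLC. The part of endothelial RNA in the Fabp4 ratios was not tested. None of the 4 adipocyte markers was in the table.

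Of the 5 other listed members of the fatty acid binding family, 2 were measured. None was higher in B16 than in LLC (11.9% of all genes) and 1 was lower (11.8% of all genes). That was Fabp7, the brain-type carrier, at 1.49 CPM in B16 and 4.17 in LLC (ratio 0.36), and 0.89 against CITE-seq LLC. Among 14 listed genes of lipid droplets and fatty acid use 2 were higher and 2 lower in B16 than in LLC, shares close to the 11.9% and 11.8% of all genes, with a median log2 ratio of -0.07 beside -0.03. Acsl1, which activates long-chain fatty acids, was at 57.9 CPM in B16 and 18.6 in LLC (3.11, 2.88 to 3.36). Dgat2, which makes triglyceride, was at 4.52 CPM in B16 and 10.7 in LLC (0.42), and Dgat1, which does the same step, was at 10.5 in B16 and 16.9 in LLC (0.62). The lipase gene Mgll was at 1.13 CPM in B16 and 0.113 in LLC (9.99, 4.26 to 27.1), on few counts.

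Lipa (chr19:34492318-34527474, minus strand) encodes lysosomal acid lipase, which frees cholesterol and fatty acids from ingested lipoprotein. It was at 191 CPM in B16, 68.1 in CITE-seq LLC and 71.9 in LLC. In B16 the level was 265 CPM in TAM-1 and between 82.9 and 117 CPM in the other 4 subsets. The highest in CITE-seq LLC was 122 CPM and in LLC 151 CPM, both in LLC TAM Hypoxic, so B16 TAM-1 was above every LLC subset. The B16 over LLC ratio was 2.18 in Mono/TAM Hypoxic, 1.54 in Mono/TAM IFN and 1.47 in Monocytes (1.26 to 1.73), each smaller than the pooled 2.66. Naive T cells held 30.7 CPM in B16 and 23.0 in LLC.

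Of 15 other lysosome genes 4 were higher and none lower in B16 than in LLC, where 11.9% of all genes were higher and 11.8% lower, with a median log2 ratio of 0.17 beside -0.03. Psap, the precursor of the saposins that help lysosomal enzymes reach sphingolipids, was at 3872 CPM in B16 and 2279 in LLC (ratio 1.70). Atp6v0d2, a proton pump subunit gene of macrophages and osteoclasts, was at 15.6 CPM in B16 and 4.07 in LLC (3.82, 3.25 to 4.50). Gla, a lysosomal glycosidase gene, was at 82.3 CPM in B16 and 44.5 in LLC (1.85). Against CITE-seq LLC 3 of the 15 were higher (11.0% of all genes) and none lower (9.93%).

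Abca1 (chr4:53030787-53159895, minus strand) and Abcg1 (chr17:31057675-31117988, plus strand) encode the transporters that pass cholesterol to lipid-poor apolipoprotein and to mature HDL. Both are known LXR targets, and here they differed in opposite directions between the tumours. Pooled Abca1 was at 80.7 CPM in B16, 146 in CITE-seq LLC and 170 in LLC, a B16 over LLC ratio of 0.47 (0.45 to 0.50), while Abcg1 was at 140.2 CPM in B16, 53.3 in CITE-seq LLC and 43.8 in LLC, a ratio of 3.20 (3.04 to 3.36). In Mono/TAM Hypoxic cells the pair also parted against LLC, Abca1 at 0.51 (0.43 to 0.60) and Abcg1 at 2.04 (1.67 to 2.47). Against CITE-seq LLC neither passed 1.5-fold there, with Abca1 at 0.71 (0.59 to 0.86) and Abcg1 at 1.39 (1.11 to 1.75), and in Immature TAM-1 Abca1 was at 2.16 (1.03 to 5.43) on 7 UMIs in CITE-seq LLC. Against LLC, in Mono/TAM IFN cells Abca1 was alike, at 1.06 (0.85 to 1.32), and Abcg1 was 2.17.

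Abca1 was lowest in Monocytes of B16, CITE-seq LLC and LLC, at 8.21 CPM in B16, 12.3 in CITE-seq LLC and 13.5 in LLC, where naive T cells held 6.28 CPM in B16 and 18.8 in LLC. Its highest levels among the subsets of this table were 123 CPM in B16 (Mono/TAM Hypoxic), 291 in CITE-seq LLC and 289 in LLC (both LLC TAM Hypoxic), followed by TAM-4 at 220 in CITE-seq LLC and 276 in LLC. In the B16 library's own annotation Abca1 was at 226 CPM in Mac-Lyve1, cells mostly absent from this table, and 143 in Mac-2. Abcg1 in B16 ran between 69.2 CPM in Monocytes and 187 in TAM-1, and in no LLC subset passed 90.01 CPM. Naive T cells held 31.7 CPM of Abcg1 in B16 and 23.0 in LLC, close to the lowest LLC levels of 26.8 CPM (Immature TAM-2) and 32.6 CPM (TAM-2).

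The promoter window of Abca1 is shown because its LXR element is textbook knowledge and the gene was the lowest of the 10 in B16 relative to LLC. It covers chr4:53159846-53160145 on the minus strand (RefSeq, GRCm38.p6). Capitals mark an E-box, CACGTG, from -147 to -142, and a direct repeat spaced by 4 bases from -67 to -52, read on the opposite strand: a pair of AGGTCA half-sites with 3 mismatches in all and no more than 2 in either. Under that allowance, 18.8% of the 32851 windows hold such a repeat, and 7.15% hold CACGTG. Of the 10 genes 6 had a window in the RefSeq table, and Abca1 alone of these held the repeat or the E-box. Lpl, Fabp4, Fabp5 and Abcg1 had no entry.
Abca1: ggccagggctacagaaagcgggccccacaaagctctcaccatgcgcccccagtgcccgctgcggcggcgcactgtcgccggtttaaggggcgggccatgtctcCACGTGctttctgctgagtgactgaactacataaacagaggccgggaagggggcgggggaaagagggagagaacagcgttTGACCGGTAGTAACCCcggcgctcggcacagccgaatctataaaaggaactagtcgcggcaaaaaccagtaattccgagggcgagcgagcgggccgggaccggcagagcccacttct

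Of 15 listed LXR and PPAR factors and targets, 13 were measured, and 4 were higher (11.9% of all genes) and 2 lower (11.8%) in B16 than in LLC, with a median log2 ratio of -0.02 beside -0.03 over all genes. Pparg, the fatty acid receptor, was at 42.2 CPM in B16 and 3.49 in LLC (ratio 12.1, 10.4 to 14.0), and its ratio against CITE-seq LLC was 7.38. Nr1h3, which encodes LXR-alpha, was at 56.6 CPM in B16 and 28.3 in LLC (2.003), and its ratio against CITE-seq LLC was 1.19. Angptl4, a PPAR target that inhibits lipoprotein lipase, was at 6.42 CPM in B16 and 1.08 in LLC (5.92, 4.43 to 8.004). Pltp, a phospholipid transfer protein and LXR target, was lower, as Abca1 was, at 103 CPM in B16 and 308 in LLC (0.33). None of 12 sterol synthesis genes passed 1.5-fold in any of the 3 contrasts, with median log2 ratios of -0.24 for B16 over LLC, -0.31 for B16 over CITE-seq LLC and 0.09 for CITE-seq LLC over LLC, beside -0.03, -0.04 and 0.02 over all genes. Of all genes, 11.9% were higher and 11.8% lower in B16 than in LLC, 11.0% and 9.93% in B16 than in CITE-seq LLC, and 3.03% and 2.81% in CITE-seq LLC than in LLC.

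Gpnmb (chr6:49036546-49070929, plus strand) encodes a glycoprotein of late endosomes that lipid-loaded macrophages make, and that melanocytes and melanoma cells make too. Lgals3 (chr14:47367751-47386160, plus strand) encodes galectin-3, a lectin long used as a macrophage marker. Both were highest in Mono/TAM Hypoxic in each library. Gpnmb was at 481 CPM there in B16, 217 in CITE-seq LLC and 101 in LLC, and Lgals3 at 10097 CPM in B16, 7436 in CITE-seq LLC and 7058 in LLC. Mono/TAM IFN cells split by tumour, with Gpnmb at 204 CPM in B16, against 16.9 in CITE-seq LLC and 14.4 in LLC, and Lgals3 at 7842 in B16, against 3414 in CITE-seq LLC and 3339 in LLC. Pooled, Gpnmb was at 95.3 CPM in B16, 28.9 in CITE-seq LLC and 21.5 in LLC (B16 over LLC 4.44, 4.15 to 4.75), and for Lgals3 that ratio was 1.24.

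The 5 melanoma markers (Pmel, Mlana, Dct, Tyrp1 and Tyr) were read beside Gpnmb. They summed to between 29.7 CPM (Monocytes) and 54.4 CPM (TAM-1) over B16 subsets, with 52.5 in Mono/TAM Hypoxic and 34.6 in Mono/TAM IFN, and all 5 were listed at 0 in both LLC libraries. Over the monocytes and macrophages 315 genes had no UMI in B16, 1354 in CITE-seq LLC and 1447 in LLC, these 5 among them in the LLC libraries, and whether such zeros were measured or come from joining tables is not stated in the sources used here. B16 naive T cells held 29.4 CPM of those markers and 13.9 CPM of Gpnmb, about the Gpnmb level of B16 Monocytes (12.9 CPM). LLC naive T cells held no Gpnmb UMI among 185 cells, which allows up to 6.26 CPM, the floor of 3 counts. Gpnmb in B16 differed 37.3-fold between Mono/TAM Hypoxic and Monocytes, subsets whose marker sums were 52.5 and 29.7 CPM. The part of melanoma RNA in the difference between tumours was not tested.

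The promoter window of Gpnmb is shown because Gpnmb was highest in Mono/TAM Hypoxic in each library. It covers chr6:49036268-49036567 on the plus strand (RefSeq, GRCm38.p6). Capitals mark the sole TGANTCA match, from position 9 to 15 after the RefSeq start. That start and the match both lie before the gene start given above, which is from another annotation. Neither CACGTG nor AGGTCA occurs in it.
Gpnmb: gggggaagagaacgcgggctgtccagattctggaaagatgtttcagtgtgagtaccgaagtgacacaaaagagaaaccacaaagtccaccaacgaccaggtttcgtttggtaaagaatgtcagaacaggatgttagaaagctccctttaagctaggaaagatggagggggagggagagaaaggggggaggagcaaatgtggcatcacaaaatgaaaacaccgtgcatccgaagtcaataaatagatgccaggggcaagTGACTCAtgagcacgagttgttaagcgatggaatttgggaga

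The CITE-seq LLC library carried 172 antibody tags, among them Mac2, which is galectin-3, and 9 isotype controls. Surface Mac2 and Lgals3 RNA ordered the subsets differently. The tag was at 32.3 UMIs per cell in TAM-4 (32.1 to 32.5), 25.4 in LLC TAM Hypoxic, 20.9 in Immature TAM-3, 10.4 in Mono/TAM Hypoxic and 5.02 in Monocytes. RNA was highest in Mono/TAM Hypoxic, at 7436 CPM, where the tag was the seventh highest of 10 subsets, and was 2925 CPM in TAM-4. Per 1000 tag UMIs the leader was LLC TAM Hypoxic at 33.0, with TAM-4 at 32.1 and Mono/TAM Hypoxic at 18.5. RNA in LLC TAM Hypoxic was the second highest, at 6126 CPM. Spearman's rho between tag and RNA over the 10 subsets was 0.02, and 0.16 with the tag taken per 1000 tag UMIs. The total of tags per cell also varied, with a median of 263 in Monocytes, 489 in Mono/TAM Hypoxic and 767 in TAM-4, and the highest isotype control was at 0.228 UMIs per cell in Monocytes, 0.333 in Mono/TAM Hypoxic and 0.809 in TAM-4. In Immature TAM-3 that control reached 8.31. Surface TREM2 and GPNMB were not analysed here.

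**Figure D4:**
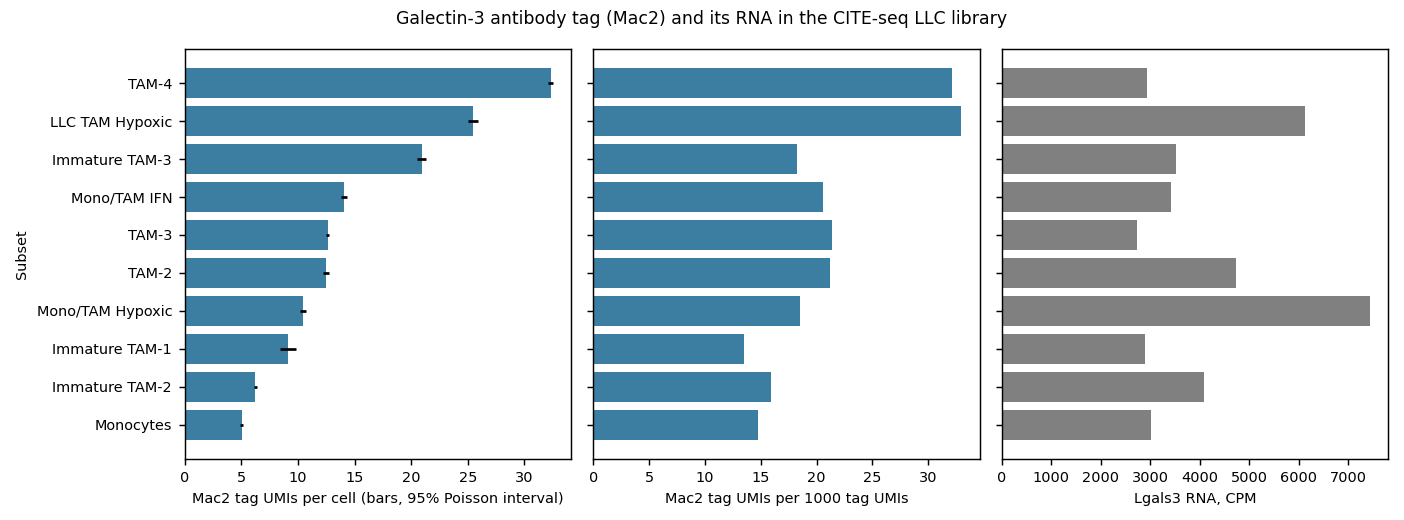
Mac2 (galectin-3) antibody tag UMIs per cell with 95% Poisson intervals, the same tag per 1000 tag UMIs, and Lgals3 RNA in CPM, for 10 subsets of the CITE-seq LLC library ordered by the tag per cell. TAM-4 leads the tag at 32.3 UMIs per cell, LLC TAM Hypoxic leads it per 1000 tag UMIs at 33.0, and Mono/TAM Hypoxic leads the RNA at 7436 CPM.

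Foam cell and lipid-associated macrophage markers outside the 10 genes were listed too. Of 14 listed, 13 were measured, and 4 were higher (11.9% of all genes) and 5 lower (11.8%) in B16 than in LLC, with a median log2 ratio of 0.28 beside -0.03 over all genes. Spp1, osteopontin, was at 981 CPM in B16 and 3444 in LLC (ratio 0.28), and the tetraspanin gene Cd9 at 174 in B16 and 580 in LLC (0.30). Itgax, which encodes CD11c, was at 121 CPM in B16 and 36.5 in LLC (3.30, 3.13 to 3.49), and the growth factor gene Igf1 at 34.3 in B16 and 7.98 in LLC (4.29). Against CITE-seq LLC 2 were higher (11.0% of all genes) and 5 lower (9.93%), with a median of -0.03 beside -0.04, and Itgax was at 1.49. Spp1 and Gpnmb, often named together for such cells, thus differed in opposite directions between these tumours.

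Over the 24 combinations of subset and library, some other pairs of the 10 genes also ran together. Pearson's r with Trem2 was 0.64 for Abca1, 0.02 for Gpnmb and -0.14 for Lgals3. Lgals3 with Gpnmb gave 0.84, and Fabp5 with each of them 0.79 and 0.79. No clean grouping came out of these values, since Abcg1 with Gpnmb gave 0.68, Fabp5 with Abcg1 0.68, Fabp4 with Abcg1 0.66 and Fabp4 with Gpnmb 0.64. Level differences between libraries enter them: Lpl with Abcg1 gave 0.76 over the 24, but within a library Spearman's rho was 0.70 in B16 (5 subsets), 0.39 in CITE-seq LLC (10) and 0.23 in LLC (9).

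Between the LLC libraries, which differ in mouse strain and in the tag protocol, Trem2 was at 496 CPM in CITE-seq LLC and 433 in LLC, a ratio of 1.14, and ran between 0.94 and 1.504 over the 9 subsets shared. Fabp5 was above 1.5-fold in 7 of 9 subsets, from 1.28 in TAM-4 to 2.67 in TAM-3, though 1.45 over all cells. Lpl was 2.07 pooled (1.89 to 2.27) and between 0.47 (Immature TAM-3) and 4.23 (LLC TAM Hypoxic) over the 8 subsets with enough counts, and Gpnmb lay between 0.36 (Monocytes, on 7 and 27 UMIs) and 4.14 (Immature TAM-3). Apoe, Abca1, Abcg1, Lipa and Lgals3 passed 1.5-fold in no shared subset.

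**Figure D5:**
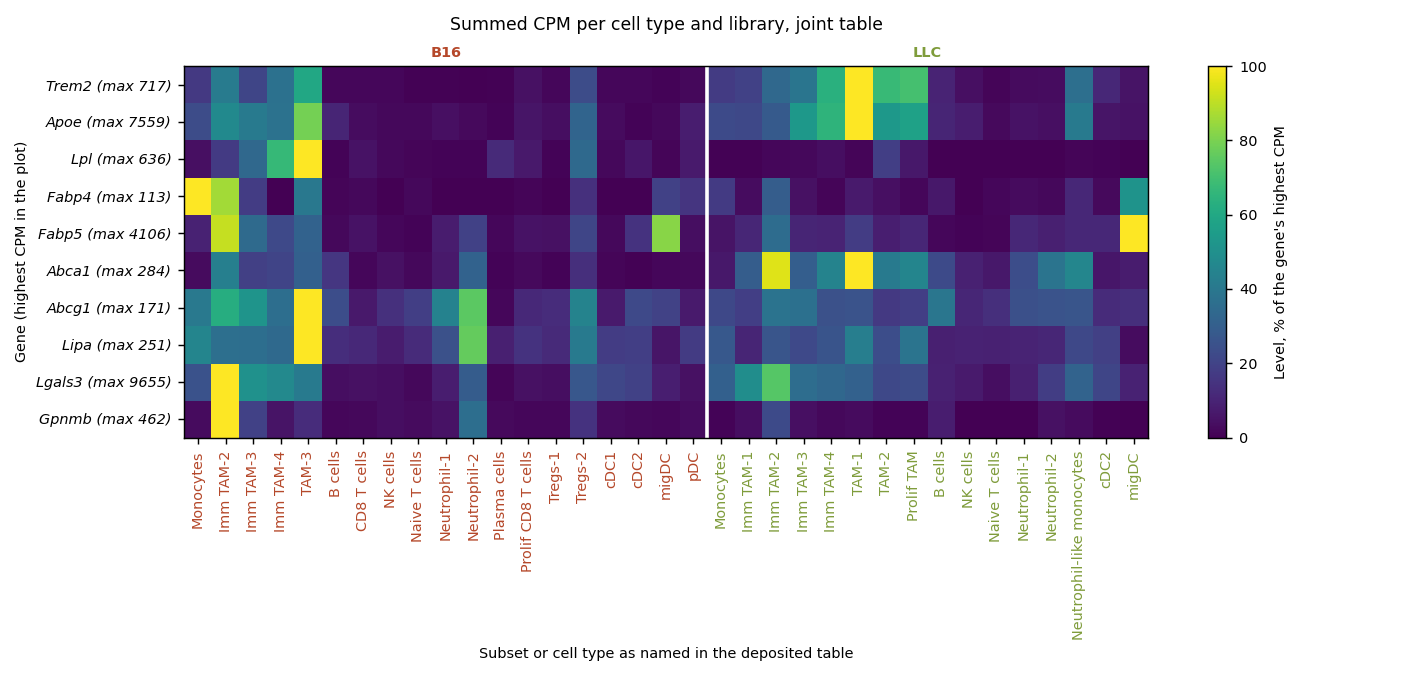
Level of each of the 10 genes in every cell type of the joint table held by at least 50 cells, in B16 and LLC, as a percentage of that gene's highest CPM (written beside its name). Trem2 and Apoe peak in TAM-3 of B16 and TAM-1 of LLC, and migratory dendritic cells (migDC) of both tumours stand out for Fabp5.

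Outside monocytes and macrophages the clearest signal was Fabp5 in migratory dendritic cells, at 3381 CPM in B16 and 4106 in LLC, against 608 in B16 cDC2 and 454 in LLC cDC2. In LLC that was the highest Fabp5 level of any cell type, 2.82-fold over the next, Imm TAM-2. Fabp4 was also highest there in LLC, at 58.0 CPM on 33 UMIs, against 22.0 CPM in B16. Neutrophil-2 cells of B16 carried 166 CPM of Gpnmb, against 21.4 in LLC, and 128 of Abcg1, against 44.1 in LLC, beside a summed melanoma marker level of 102 CPM, the highest of any B16 cell type. That cluster held 85 B16 cells with 156243 UMIs in all, so its levels rest on few UMIs. The Tregs-2 cluster of B16 held 2441 CPM of Apoe and 167 of Trem2, and a monocyte and macrophage marker sum of 6357 CPM, so its values are not those of T cells alone. In the joint class, Trem2 was at 341 CPM in B16 and 439 in LLC (ratio 0.78), and Lgals3 at 4177 in B16 and 3470 in LLC (1.20). The Neutrophil-like monocytes of LLC, outside that class, held 261 CPM of Trem2 and 3107 of Apoe.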

How the data were processed

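UMI counts per gene and cell, and per antibody tag and cell, are the authors' deposited values, not normalized. The labels give 1 library per tumour group. Cell Ranger (version not given) and mm10 are named in the submitters' processing notes, and no other upstream step is stated. Cell names and libraries were taken from the authors' deposited cell tables, every deposited cell was kept, and no doublet caller was run.

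UMIs were summed per library and subset, divided by total UMIs and multiplied by 1000000 (CPM). Intervals are exact at 95% (Poisson for levels, Clopper-Pearson for shares, conditional binomial for ratios) and cover counting error only. Genes needed 20 UMIs over both sides and at least 1 UMI in each library, and subsets 50 cells. With 1 library per group no p-value was computed. A count of 0 was bounded by a floor of 3 counts. Shares were also taken after thinning to 2000 UMIs per cell. Total UMIs were 24785633 in B16, 57060792 in CITE-seq LLC and 61873864 in LLC.

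All 10 genes are named, plus, in each of 8 lists, up to 4 genes past 1.5-fold in B16 over LLC with the interval bound farthest from 1, and the 5 genes correlating best with Trem2 on log2(CPM + 1). Of the list genes so chosen, 1 is not reported here. The genes and lists were chosen with earlier results of these data known. The ratio script was tested on simulated data. Python 3.11.15, SciPy 1.17.1 and pandas 2.3.3 were used. Gene positions are from GENCODE on GRCm38 (mm10). Alternatives were another scaling, thinning, means over cells, equal weight to subsets, leaving out the 5% of cells with most UMIs, a minimum of 5 UMIs, a 2-fold call, subtracting T cell levels, and the B16 library's own annotation.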

Additional observations from a re-analysis of the deposited data

Results flagged for a closer look

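In 5 cases a gene differed past 1.5-fold in opposite directions in different subsets of the same contrast, counting subsets with at least 20 UMIs of the gene in each library and counting intervals that left out 1. On fewer UMIs, Gpnmb in CITE-seq LLC over LLC and Abca1 in B16 over CITE-seq LLC also passed 1.5-fold both ways. None of these differences was tested, since each group is 1 library. For Trem2, B16 over LLC was 1.60 in Mono/TAM Hypoxic and 0.37 in Mono/TAM IFN, ratios 4.33-fold apart. For Apoe the same subsets gave 1.90 and 0.55, which lie 3.42-fold apart. Apoe in B16 over CITE-seq LLC was 1.62 in Monocytes and 0.60 in Mono/TAM IFN, 2.71-fold apart. The B16 Monocytes were mostly Mono-NC in the B16 library's own annotation, and the part of that mix was not tested. In the joint table Apoe in B16 over LLC was 1.69 in Imm TAM-2 and 0.58 in Imm TAM-4, 2.92-fold apart. For Lpl, CITE-seq LLC over LLC was 4.23 in LLC TAM Hypoxic and 0.47 in Immature TAM-3, 9.02-fold apart.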

How the results depend on the processing

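No paired analysis was possible because each group is 1 library. With a 2-fold call, 5 genes passed in B16 over CITE-seq LLC in place of 8, and with equal weight to each shared subset 3 passed in CITE-seq LLC over LLC in place of 1. The other counts of genes past the fold stayed within 1.5 times of the reported ones. Shares of all genes are given here only for the 1.5-fold call on pooled ratios. The counts under other settings therefore have no share of all genes beside them. No ratio changed direction past the call. In the B16 contrasts, equal weight covers only subsets with at least 50 cells in both libraries, so every subset named TAM-1, TAM-2, TAM-3 or TAM-4 is left out. Equal weight moved 10 of 40 ratios by over 1.5-fold, among them Lpl in B16 over CITE-seq LLC (4.95 in place of 19.4) and Abca1 in that contrast (0.92 in place of 0.55), and kept 34 of 40 on the same side of 1.5-fold. The other 6 were Lipa in the joint table (1.49 in place of 2.71), Trem2 (0.71 in place of 0.66) and Abca1 in B16 over CITE-seq LLC, which lost the call, and Lgals3 in B16 over LLC (1.53) and Fabp5 (1.79) and Gpnmb (1.84) in CITE-seq LLC over LLC, which gained one. Scaling by the median ratio kept 39 of 40, Trem2 in B16 over CITE-seq LLC being the exception (0.68 in place of 0.66). Thinning, means over cells and leaving out the 5% of cells with most UMIs kept 40 of 40. Subtracting T cell levels kept 10 of 10 and moved Abcg1 to 5.64 in place of 3.30. Depth limits Fabp4, Lpl and Gpnmb in LLC subsets, where some levels rest on under 20 UMIs.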

Other observations

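The B16 library's own annotation split its macrophages further. Of the TAM-1 cells, 617 were named Mac-1 and 306 Mac-2. Fabp4 was at 168 CPM in Mac-2 and 20.9 in Mac-1, and at 145 in Mono-NC and 8.29 in Mono, so that it was high in 1 part of each class. Abcg1 (251 CPM in Mac-2, 155 in Mac-1), Lgals3 (7164 in Mac-2, 3354 in Mac-1) and Gpnmb (153 in Mac-2, 47.4 in Mac-1) were also above 1.5-fold in Mac-2. So were Fabp5 (2235 in Mac-2, 1294 in Mac-1) and Abca1 (143 in Mac-2, 85.9 in Mac-1). Apoe (4881 in Mac-2, 7368 in Mac-1) and Lpl (371 in Mac-2, 756 in Mac-1) were lower there, and Trem2 and Lipa lay within 1.5-fold. The 53 Mac-Lyve1 cells held 15344 CPM of Apoe, 226 of Abca1 and no Fabp4 UMI. These clusters were formed on the same counts, so the values are descriptions.

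The CITE-seq LLC library carried 5 other tags for genes on the lists. Those for CD36 and CD68 were below the highest isotype control in several subsets, TAM-4 among them (0.412 for CD36 and 0.695 for CD68 against 0.809 UMIs per cell). Over the 10 subsets, Spearman's rho of RNA with the tag per 1000 tag UMIs was 0.95 for CD63, 0.95 for CD204 (Msr1) and 0.73 for CD9. It was 0.59 for CD68 and -0.38 for CD36, so tag and RNA did not run together for every gene. In Immature TAM-3 the highest isotype control was above all of these tags, and CD204 was also below it in Monocytes, Immature TAM-1 and Immature TAM-2. CD63 was at 4.70 tag UMIs per cell in TAM-4 and 0.353 in Monocytes.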
